A study of Homo sapiens with 60 samples.

Results

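SW1783 cells given 100 µg/mL of a water extract of Cinnamomi Cortex, the bark of the cinnamon tree, were compared with the same cells given 20 µg/mL of that extract. The 6 libraries, 3 at each dose, were picked by the medium and low dose named in their sample titles and make up 6 of the 60 libraries of the series. SW1783 is an established human astrocytoma line, and the series profiled its mRNA by RNA-seq 24 h after a tonifying herbal preparation, each at 3 doses, or after a DMSO vehicle. The question of the 100 against 20 µg/mL step is which genes move between these 2 doses. It cannot show which genes had already moved at 20 µg/mL. Further libraries gave context: cells given 500 µg/mL of the same Cinnamon extract, cells given 20, 100 or 500 µg/mL of a water extract of Astragali Radix (Astragalus root), and cells given the vehicle, with 3 libraries in each group. All Cinnamon and Astragalus libraries carry sample codes of one set, numbered 6, while the vehicle libraries carry another code. Their labels name DMSO only for the vehicle, at 0.1%, and the series description gives it as 2%, so extract, code set and solvent cannot be told apart in a comparison with vehicle. The labels do not state whether replicates are separate cultures, and the p-values therefore reflect the spread among these libraries alone, which may be technical.

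The 6 libraries held 23882070 to 26987544 counts, with 23036 to 23532 genes detected, and the share of mitochondrial counts was 6.65% to 7.47% at 100 µg/mL and 7.33% to 8.34% at 20 µg/mL. Among 11 astrocyte markers, GJA1, CLU and SOX9 had the highest levels, and GFAP, AQP4, ALDH1L1 and NDRG2 were under 0.1 CPM. The summed level of those 11 markers was 497 to 529 CPM at 100 µg/mL and 502 to 519 CPM at 20 µg/mL, and none of the 5 tested members passed the test. Levels are given as CPM, counts relative to library size scaled with TMM factors, and changes as log2 fold changes ± standard error (SE). Adjusted p-values come from edgeR's quasi-likelihood test with Benjamini-Hochberg adjustment over 16720 genes, and a gene is called at an adjusted p under 0.05. Counts include reads of all RNA of a culture, so fewer cells of a kind and less RNA per cell cannot be told apart.

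Several of the genes described here belong to well-known circuits. NRF2 is a transcription factor that is held back by KEAP1 until electrophiles or oxidants modify that protein, and it then switches on enzymes that make glutathione, reduce quinones and break down heme. Retinoic acid acts through nuclear receptors that raise the genes for its own storage and breakdown, which makes DHRS3, RARB, CYP26B1 and STRA6 common readouts of retinoid signalling. BMP signals raise the ID genes, which encode inhibitors of bHLH transcription factors, and zinc raises the metallothioneins through the factor MTF1.

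The step to 100 µg/mL called 47 genes, 22 higher and 25 lower than at 20 µg/mL. That is 0.281% of all genes tested (0.132% higher and 0.15% lower), and 910 genes (5.44%) had an unadjusted p under 0.05. Cinnamon 20 µg/mL against vehicle called 392 genes (2.34%), 197 higher and 195 lower, in a comparison that also differs in code set and solvent label. The 47 genes are therefore not shown to be the first to respond. In each of the 47 genes all libraries of one dose lay beyond all libraries of the other, which was also so for 11.1% of all genes. Changes were small: HMOX1, DHRS3 and MT1E changed at least 2-fold, 9 genes at least 1.5-fold and the other 38 less. Most of the called genes on lists of known function were heme, iron and oxidant defence genes or hypoxia targets (higher), and retinoid genes, ID genes or metallothioneins (lower). Replicate numbers of the 2 doses deviated together, and with a replicate term 72 genes were called (0.431%), which included the same 47. Without any term the 6 libraries alone called 12 genes, and with the term they called 589. Leaving out 1 library at a time left 40 calls without medium replicate 1, 21 without medium replicate 2, 22 without medium replicate 3, 27 without low replicate 1, 29 without low replicate 2 and 24 without low replicate 3. 16 of the 47 genes were called in all 6 of these, and HMOX1, DHRS3, MT1E, SAMD11, ID3 and ALAS1 were called in all 20 alternatives tried.

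**Figure D1:**
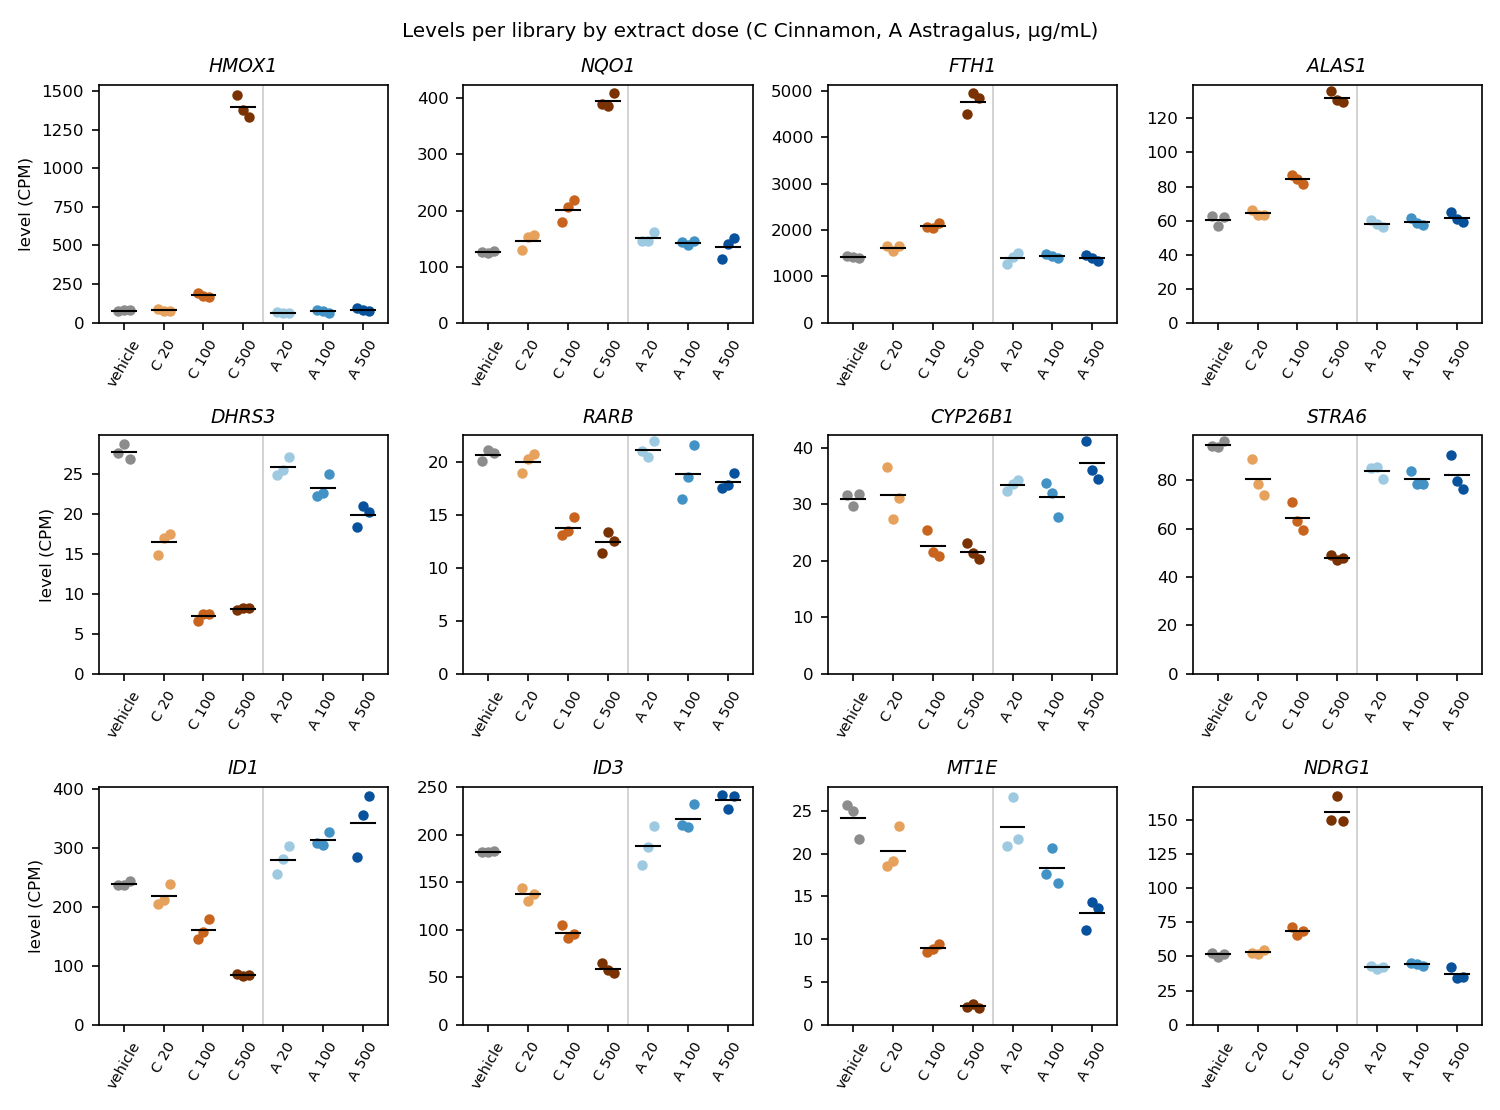
Levels (CPM, linear axes from 0) of 12 genes in each library of vehicle, Cinnamon extract (C) and Astragalus extract (A) at 20, 100 and 500 µg/mL. Points are libraries and bars are means of 3. HMOX1, NQO1, FTH1, ALAS1 and NDRG1 lie higher at C 100 than at C 20, and DHRS3, RARB, CYP26B1, STRA6, ID1, ID3 and MT1E lie lower.

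HMOX1, ALAS1, FTH1 and FTL rose, 4 of 15 tested genes of heme and iron handling. HMOX1 (chromosome 22, 35380361 to 35394214 on GRCh38) encodes heme oxygenase 1, which opens the heme ring and frees its iron. It had 195, 174 and 166 CPM at 100 µg/mL, against 86.7, 78.9 and 79.2 CPM at 20 µg/mL. The lowest library of the higher dose was far above the highest of the lower dose. The gene was 2.18-fold higher (log2 1.13 ± 0.07, adjusted p = 1.47e-09). Its mean was 79.4 ± 2.24 CPM in vehicle, 81.6 ± 4.41 at 20, 178 ± 15.0 at 100 and 1393 ± 70.9 CPM at 500 µg/mL (SD, n = 3 each). The test of 20 µg/mL against vehicle did not separate the groups (log2 0.04 ± 0.07, adjusted p = 0.843), while 500 against 100 µg/mL did (log2 2.97 ± 0.07, adjusted p = 1.23e-18).

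ALAS1, the first and rate-limiting enzyme of heme synthesis, rose beside the enzyme that breaks heme down. Its level was 86.8, 84.4 and 81.8 CPM at 100 µg/mL, against 66.4, 63.5 and 63.4 CPM at 20 µg/mL, with no overlap. The change was 1.31-fold (log2 0.39 ± 0.05, adjusted p = 0.000246). The ferritin chains, which store iron, also rose. FTH1, the heavy chain, had 2061, 2045 and 2145 CPM at 100 µg/mL, against 1652, 1539 and 1649 CPM at 20 µg/mL (log2 0.37 ± 0.06, adjusted p = 0.00186). FTL, the light chain, had 1480.0, 1429 and 1362 CPM at 100 µg/mL, against 1173, 1143 and 1126 CPM at 20 µg/mL (log2 0.31 ± 0.06, adjusted p = 0.017). Neither chain overlapped between the doses, which was so for all 47 called genes. Ferritin genes have many near-identical pseudogene copies, so how their reads were shared out is uncertain. These 4 genes were the called members among 15 tested genes of heme and iron handling (4 higher, 0 lower). The list had a median log2 change of 0.08, against 0.0013 over all genes tested, of which 0.132% were called higher. The iron importer TFRC read log2 0.07 ± 0.09 and the biliverdin reductases BLVRA and BLVRB 0.08 and 0.06, none of them called.

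Among 22 NRF2 targets 4 were called higher (HMOX1, NQO1, AKR1C1 and GCLM) and 0 lower. The median was 0.18, and 20 of 22 log2 values were above 0. Over all genes tested 0.132% were called higher and 0.15% lower, and 8457 of 16720 values were above 0. NQO1, a quinone reductase, had 180.0, 206 and 219 CPM at 100 µg/mL, against 129, 153 and 157 CPM at 20 µg/mL. Replicate 1 was the lowest at both doses, and the groups did not overlap (log2 0.47 ± 0.09, adjusted p = 0.0129). AKR1C1, an aldo-keto reductase, had 31.2, 30.8 and 30.4 CPM at 100 µg/mL, against 21.7, 24.0 and 24.8 CPM at 20 µg/mL (log2 0.39 ± 0.06, adjusted p = 0.00409). It shares long stretches with AKR1C2, which read log2 0.28 ± 0.10 (adjusted p = 0.544), so the split of reads between them is uncertain. GCLM, the modifier subunit of the enzyme that starts glutathione synthesis, had 105, 107 and 103 CPM at 100 µg/mL, against 83.6, 90.5 and 89.7 CPM at 20 µg/mL (log2 0.26 ± 0.05, adjusted p = 0.0222). Its catalytic partner GCLC read 0.05 ± 0.05 and was not called. With the replicate term 7 NRF2 targets were called, the added ones being the cystine importer subunit SLC7A11 (adjusted p = 0.0173), PIR (0.0269) and the sulfiredoxin SRXN1 (0.0325). That fit called 34 of all 16720 genes tested higher.

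SQSTM1, the autophagy receptor p62 that also binds KEAP1, had 675, 644 and 664 CPM at 100 µg/mL, against 549.9, 556 and 576 CPM at 20 µg/mL (log2 0.24 ± 0.04, adjusted p = 0.0101). It was the single called gene among 26 tested lysosome and autophagy genes, and 0.132% of all genes tested were called higher. All 8 genes of this group were higher again at 500 than at 100 µg/mL, with log2 changes of 1.43 ± 0.06 for FTL, 1.34 ± 0.04 for SQSTM1 and 1.81 ± 0.06 for AKR1C1 (adjusted p = 3.15e-14, 3.08e-16 and 3.23e-16), in a comparison where 21.7% of all genes were called (9.81% higher and 11.8% lower). Leaving out 1 library ended no call of HMOX1, ALAS1 and FTH1, while the highest adjusted p was 0.163 for NQO1 and 0.097 for FTL (without medium replicate 3 and low replicate 3), 0.0508 and 0.215 for AKR1C1 and GCLM (without low replicate 1) and 0.0779 for SQSTM1 (without medium replicate 3).

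The antioxidant response element core, to which NRF2 binds, is shown for GCLM because this called target has a match close to its start. The core was searched as TGACNNNGC on both strands of promoter windows of 300 bases (250 before to 50 after a gene's start, from RefSeq on GRCh38.p14). It was in 7 of 20 windows of NRF2 targets and in 13.3% of all 35116 windows. The 250 bases before the start of GCLM, chr1:93909431-93909680 on the minus strand, hold 1 match on the reverse strand, 34 bases before the start and in capitals below.
GCLM: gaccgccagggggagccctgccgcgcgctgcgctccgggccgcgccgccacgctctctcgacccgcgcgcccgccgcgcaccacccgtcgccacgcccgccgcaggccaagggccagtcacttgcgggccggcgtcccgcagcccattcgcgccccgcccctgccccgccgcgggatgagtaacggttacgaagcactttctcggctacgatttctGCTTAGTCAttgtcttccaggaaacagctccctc

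DHRS3, RARB, CYP26B1 and STRA6 fell, 4 of 14 tested retinoid genes. DHRS3 (chromosome 1, 12567910 to 12617731) encodes a reductase that turns retinal back into retinol and is itself raised by retinoic acid. It had 6.54, 7.43 and 7.52 CPM at 100 µg/mL, against 14.9, 17.0 and 17.5 CPM at 20 µg/mL. Every library of the higher dose held about as much as the others of that dose and lay clear of the lower dose. The level was 2.29-fold lower (log2 -1.20 ± 0.08, adjusted p = 2.86e-09). The course over dose had its steps at the low end: 27.7 ± 0.907 CPM in vehicle, 16.4 ± 1.38 at 20, 7.16 ± 0.542 at 100 and 8.11 ± 0.141 CPM at 500 µg/mL (SD, n = 3 each). The 20 µg/mL group was below vehicle (log2 -0.75 ± 0.07, adjusted p = 2.28e-06). That comparison called 2.34% of genes (1.18% higher and 1.17% lower) and also differs in code set and solvent label. At 500 against 100 µg/mL DHRS3 read 0.18 ± 0.09 (adjusted p = 0.163).

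RARB, a retinoic acid receptor whose gene is a direct target of retinoic acid, had 13.1, 13.5 and 14.8 CPM at 100 µg/mL, against 19, 20.3 and 20.8 CPM at 20 µg/mL. The groups did not overlap and the fall was log2 -0.54 ± 0.08 (adjusted p = 0.00226). CYP26B1, which breaks down retinoic acid, had 25.4, 21.6 and 20.8 CPM at 100 µg/mL, against 36.6, 27.4 and 31.1 CPM at 20 µg/mL. Its libraries were more scattered than those of RARB, and the highest at 100 µg/mL was just under the lowest at 20 µg/mL (log2 -0.49 ± 0.10, adjusted p = 0.0222). STRA6, the membrane receptor that brings retinol into cells, had 71.0, 63.0 and 59.3 CPM at 100 µg/mL, against 88.6, 78.6 and 73.9 CPM at 20 µg/mL (log2 -0.32 ± 0.07, adjusted p = 0.0444). Replicate 1 was the highest at both doses, and with the replicate term the adjusted p was 0.00121. At 500 against 100 µg/mL RARB read -0.15 ± 0.09 and CYP26B1 -0.06 ± 0.10, neither called, while STRA6 fell by a further 0.42 ± 0.07 (adjusted p = 9.69e-05).

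These 4 were the called members of 14 tested retinoid genes (0 higher, 4 lower), whose median was -0.09 with 11 of 14 values below 0. Of all genes tested 0.15% were called lower, and 8260 of 16720 values were below 0. The receptors RARA, RARG and RXRA read -0.14, -0.05 and 0.01, and the retinol dehydrogenase RDH10 read -0.13, none of them called. CYP26A1 and 5 other members were too low to be tested. CYP24A1, the enzyme that breaks down active vitamin D, also fell, with 7.96, 7.88 and 8.01 CPM at 100 µg/mL, against 10.6, 11.4 and 13.4 CPM at 20 µg/mL (log2 -0.56 ± 0.10, adjusted p = 0.005). Unlike RARB it was called again at 500 against 100 µg/mL (log2 -1.27 ± 0.11, adjusted p = 1.3e-08). When single libraries were left out, DHRS3 and RARB stayed called, and the highest adjusted p was 0.152 for CYP26B1 and 0.343 for STRA6 (both without medium replicate 3) and 0.0636 for CYP24A1 (without low replicate 3).

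RARB is shown since its promoter carries the textbook response element for retinoic acid receptors, a direct repeat. The search took GTTCA followed after any 6 bases by GTTCA, on both strands, a motif added after the results were known. It was in 20 of all 35116 windows (0.057%) and in 2 of 38 windows of retinoid genes. The 250 bases before the start, chr3:25428013-25428262 on the plus strand of GRCh38.p14 (RefSeq), hold 1 match whose first base is 52 bases before the start.
RARB: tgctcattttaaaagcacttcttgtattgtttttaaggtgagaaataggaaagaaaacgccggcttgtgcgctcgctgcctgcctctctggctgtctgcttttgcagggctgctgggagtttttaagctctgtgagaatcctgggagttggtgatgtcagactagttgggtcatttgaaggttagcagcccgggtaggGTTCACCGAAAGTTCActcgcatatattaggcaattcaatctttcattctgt

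**Figure D2:**
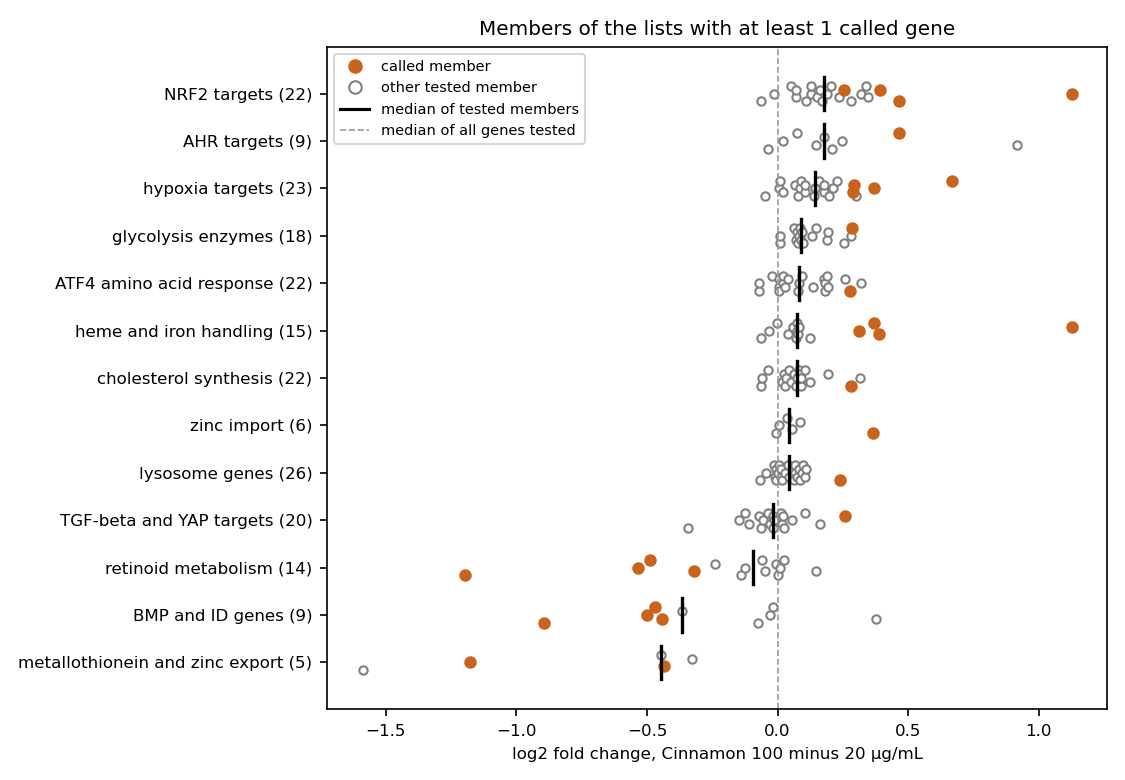
Log2 fold change of each tested member of the 13 pathway lists with at least 1 called gene, Cinnamon 100 minus 20 µg/mL. Filled points are called members, black bars are list medians, the dashed line is the median of all genes tested, and the number of tested members stands in brackets. The called points of the NRF2, heme and iron and hypoxia lists lie right of 0, and those of the retinoid, BMP and ID and metallothionein lists lie left of it.

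All 4 ID genes fell. ID1 had 146, 157 and 179 CPM at 100 µg/mL, against 204, 212 and 239 CPM at 20 µg/mL (log2 -0.44 ± 0.09, adjusted p = 0.0382). ID2 had 12.1, 14.4 and 14.2 CPM at 100 µg/mL, against 17.6, 20.1 and 18.6 CPM at 20 µg/mL (log2 -0.47 ± 0.10, adjusted p = 0.0233). ID3 had 105, 91.3 and 95.1 CPM at 100 µg/mL, against 144, 130.5 and 138 CPM at 20 µg/mL (log2 -0.50 ± 0.07, adjusted p = 0.00094). As in all 47 called genes, the doses did not overlap in any of the 3. ID4, the least abundant, had 1.68, 1.26 and 1.44 CPM at 100 µg/mL, against 2.8, 2.25 and 3.16 CPM at 20 µg/mL (log2 -0.90 ± 0.17, adjusted p = 0.012). Its steeper fall came with the widest standard error of the group.

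The ID genes were the called members of 9 tested BMP and ID genes (0 higher, 4 lower). This list had a median of -0.36, with 8 of 9 values below 0. For all genes tested 0.15% were called lower, and 8260 of 16720 values were below 0. SMAD6, an inhibitor of BMP signalling that is itself a target of it, read -0.36 ± 0.09 (adjusted p = 0.163), while SMAD7 read -0.02 and the ligand BMP4 -0.07. GREM1, a secreted BMP antagonist, had 25.6, 24.6 and 23.2 CPM at 100 µg/mL, against 20.7, 18.7 and 17.2 CPM at 20 µg/mL, and was called higher with the replicate term (log2 0.38, adjusted p = 0.0205) but not without it (0.211). ATOH8, a bHLH transcription factor, fell as well, with 10.8, 12.4 and 11.8 CPM at 100 µg/mL, against 15.3, 14.6 and 16 CPM at 20 µg/mL (log2 -0.40 ± 0.08, adjusted p = 0.0283). ID1, ID2, ID3, ID4 and ATOH8 were lower again at 500 than at 100 µg/mL, by log2 changes of -0.93, -0.75, -0.72, -1.24 and -0.65 (adjusted p of at most 0.000191). ID3 and ATOH8 were below vehicle at 20 µg/mL (log2 -0.41 and -0.44, adjusted p = 0.00206 and 0.00214). That comparison called 1.17% of all genes lower and also differs in code set and solvent label. Only ID3 kept its call with each library left out, and the highest adjusted p reached 0.323 for ID1, 0.201 for ID2, 0.113 for ID4 and 0.228 for ATOH8.

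MT1E and MT1X fell, which encode metallothioneins, small proteins that bind zinc and copper. MT1E (chromosome 16, 56625475 to 56627112) had 8.56, 8.86 and 9.49 CPM at 100 µg/mL, against 18.6, 19.2 and 23.2 CPM at 20 µg/mL. The level was 2.26-fold lower, with no overlap (log2 -1.18 ± 0.12, adjusted p = 5.32e-06). The mean was 24.1 ± 2.14 CPM in vehicle, 20.3 ± 2.53 at 20, 8.97 ± 0.477 at 100 and 2.17 ± 0.265 CPM at 500 µg/mL (SD, n = 3 each). MT1X had 13.4, 13.9 and 13.5 CPM at 100 µg/mL, against 17.5, 19.1 and 18.5 CPM at 20 µg/mL (log2 -0.43 ± 0.09, adjusted p = 0.0462). MT2A, the most abundant, had 287, 284 and 275 CPM at 100 µg/mL, against 385, 392 and 376 CPM at 20 µg/mL. Although its groups did not overlap, it missed the threshold (log2 -0.45 ± 0.10, adjusted p = 0.111) and passed it with the replicate term (adjusted p = 0.0433). MT1 genes are near-identical copies of one another, so the split of reads between them is uncertain.

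Of 11 genes of this list 5 could be tested, with 0 called higher and 2 lower. Their median was -0.45, with 5 of 5 values below 0. Among all genes tested 0.15% were called lower, and 8260 of 16720 values were below 0. The zinc exporter SLC30A1, like the metallothioneins a target of MTF1, had 49.0, 59.6 and 56.7 CPM at 100 µg/mL, against 61.0, 73.0 and 73.1 CPM at 20 µg/mL. Replicate 1 was the lowest at both doses, the adjusted p was 0.163 without and 0.00197 with the replicate term, and the log2 change was -0.33. Opposite to these, the zinc importer SLC39A10 rose, with 55.0, 59.8 and 61.5 CPM at 100 µg/mL, against 43.0, 47.3 and 46.5 CPM at 20 µg/mL (log2 0.36 ± 0.07, adjusted p = 0.01). It was the single called member of 6 zinc importers, and 0.132% of all genes tested were called higher. MT1E, MT1X and SLC39A10 moved further at 500 against 100 µg/mL (log2 -2.05, -0.87 and 0.64, adjusted p = 2.23e-09, 1.18e-06 and 9.58e-08). With single libraries left out MT1E stayed called, while the highest adjusted p was 0.274 for MT1X (without low replicate 2) and 0.127 for SLC39A10 (without medium replicate 3).

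MT1X is shown because its promoter is dense in metal response element cores, the binding motif of MTF1. The core was searched as TGCACNC or TGCGCNC on both strands. It was in 5 of 7 windows of this list and in 29.6% of all windows, and 8.60% of all windows held at least 2 matches. The 250 bases before the start of MT1X, chr16:56682220-56682469 on the plus strand of GRCh38.p14 (RefSeq), hold 4 matches that begin 150, 122, 78 and 53 bases before the start, the one at 78 on the reverse strand.
MT1X: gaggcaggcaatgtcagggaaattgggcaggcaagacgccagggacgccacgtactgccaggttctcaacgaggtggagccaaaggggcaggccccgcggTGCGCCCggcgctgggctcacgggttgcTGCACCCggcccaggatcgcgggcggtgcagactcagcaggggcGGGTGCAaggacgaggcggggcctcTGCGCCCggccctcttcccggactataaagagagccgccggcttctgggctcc

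ANGPTL4, NDRG1, BNIP3 and CA9, all hypoxia targets, rose. Of 23 tested members of that list 4 were called higher and 0 lower, the median was 0.14, and 22 of 23 values were above 0. The figures over all genes tested were 0.132% called higher and 8457 of 16720 above 0. ANGPTL4, a secreted inhibitor of lipoprotein lipase, had 28.9, 26.0 and 23.2 CPM at 100 µg/mL, against 18.5, 15.8 and 14.9 CPM at 20 µg/mL (log2 0.67 ± 0.11, adjusted p = 0.00644). Its vehicle mean of 21.8 ± 0.628 CPM lay between the doses. NDRG1, a stress-induced gene, had 71.4, 65.7 and 68.3 CPM at 100 µg/mL, against 52.5, 52.1 and 54.7 CPM at 20 µg/mL (log2 0.37 ± 0.06, adjusted p = 0.00569). BNIP3, a mitochondrial receptor for autophagy, had 144, 150.4 and 155 CPM at 100 µg/mL, against 119, 125 and 125 CPM at 20 µg/mL (log2 0.29 ± 0.05, adjusted p = 0.0076). CA9, a cell surface carbonic anhydrase, had 43.9, 40.6 and 41.5 CPM at 100 µg/mL, against 33.9, 34.9 and 34.1 CPM at 20 µg/mL (log2 0.29 ± 0.06, adjusted p = 0.0368). Like all 47 called genes, none of the 4 overlapped between doses. VEGFA, the angiogenic factor, read 0.08 ± 0.05, ADM 0.14 ± 0.08 and PDK1 0.14 ± 0.06, not called.

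All 18 glycolysis genes tested had values above 0 (median 0.09), against 8457 of all 16720 genes tested. ENO2, an enolase, was the single called gene of the 18, where 0.132% of all genes tested were called higher. Its level was 69.2, 74.4 and 68.4 CPM at 100 µg/mL, against 53.3, 58.7 and 62.1 CPM at 20 µg/mL (log2 0.28 ± 0.06, adjusted p = 0.0444). PLIN2, which coats lipid droplets, had 70.6, 72.8 and 73.9 CPM at 100 µg/mL, against 56.3, 59.0 and 58.5 CPM at 20 µg/mL (log2 0.32 ± 0.06, adjusted p = 0.00724). At 500 against 100 µg/mL ANGPTL4, NDRG1, ENO2 and PLIN2 were higher again (log2 1.3, 1.18, 0.81 and 1.39, adjusted p of at most 6.78e-09), and so were BNIP3 (0.37 ± 0.05) and CA9 (0.34 ± 0.06) by less. ANGPTL4 and NDRG1 kept their calls with each library left out, while the highest adjusted p was 0.111 for BNIP3, 0.197 for CA9, 0.41 for ENO2 and 0.0791 for PLIN2.

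BNIP3 is shown as a called hypoxia target with the hypoxia response element core near its start. The core was searched as ACGTG on both strands and was in 16 of 27 windows of hypoxia targets and in 21.4% of all windows. The 250 bases before the start of BNIP3, chr10:131981924-131982173 on the minus strand of GRCh38.p14 (RefSeq), hold 2 matches, 1 on each strand, which overlap in the capitals and begin 134 and 133 bases before the start.
BNIP3: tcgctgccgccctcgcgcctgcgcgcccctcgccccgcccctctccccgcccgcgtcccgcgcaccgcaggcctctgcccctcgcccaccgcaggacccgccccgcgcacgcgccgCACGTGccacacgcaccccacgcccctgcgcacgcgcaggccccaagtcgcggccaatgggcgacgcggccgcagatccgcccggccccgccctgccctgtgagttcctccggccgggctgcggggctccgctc

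Other genes that rose were each alone on their list or on none. INSIG1, which holds back sterol synthesis, had 177, 189.6 and 197 CPM at 100 µg/mL, against 154, 155 and 154 CPM at 20 µg/mL (log2 0.28 ± 0.06, adjusted p = 0.0192). It was the single called gene of 22 cholesterol genes, whose median was 0.07, and 0.132% of all genes tested were called higher. STC2, a secreted glycoprotein among the 22 ATF4 targets, had 677, 696 and 682 CPM at 100 µg/mL, against 566, 575 and 556 CPM at 20 µg/mL (log2 0.28 ± 0.04, adjusted p = 0.0039). SAT1, which starts polyamine breakdown, rose by log2 0.32 ± 0.06 (adjusted p = 0.0118), and EPGN, a low-abundance ligand of the EGF receptor, by 0.66 ± 0.14 (adjusted p = 0.0354).

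BEX1, ADAMTS1 and THBS1 rose at 100 µg/mL and were not called higher at 500 than at 100 µg/mL. Both comparisons use the 100 µg/mL libraries by which these genes were picked, so the second reading is not independent of the pick. Of all genes tested 0.132% were called higher at 100 than at 20 µg/mL. THBS1, a matrix glycoprotein and the single called gene of 20 TGF-beta and YAP targets, had 2417, 2357 and 2281 CPM at 100 µg/mL, against 2034, 1949.7 and 1918 CPM at 20 µg/mL (log2 0.26 ± 0.05, adjusted p = 0.0117). Over dose its mean was 2330.3 ± 35.2 CPM in vehicle, 1967 ± 60.01 at 20, 2352 ± 68.5 at 100 and 1522 ± 73.4 CPM at 500 µg/mL (SD, n = 3 each). Cells at 500 µg/mL were thus below those at 100 µg/mL (log2 -0.63 ± 0.05, adjusted p = 1.03e-09). ADAMTS1, a secreted protease, had 74.4, 75.3 and 69.8 CPM at 100 µg/mL, against 59.8, 60.03 and 57.2 CPM at 20 µg/mL (log2 0.31 ± 0.05, adjusted p = 0.00722), and fell at 500 against 100 µg/mL (log2 -0.30 ± 0.05, adjusted p = 0.000223). BEX1, a small adaptor protein of nerve tissue, had 184, 181 and 189 CPM at 100 µg/mL, against 155, 151 and 152 CPM at 20 µg/mL (log2 0.28 ± 0.05, adjusted p = 0.0117), and read -0.04 ± 0.05 at 500 against 100 µg/mL (adjusted p = 0.677). STC2 kept its call with each library left out, while the highest adjusted p was 0.244 for INSIG1, 0.132 for SAT1, 0.336 for EPGN, 0.0954 for THBS1, 0.0696 for ADAMTS1 and 0.0801 for BEX1.

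**Figure D3:**
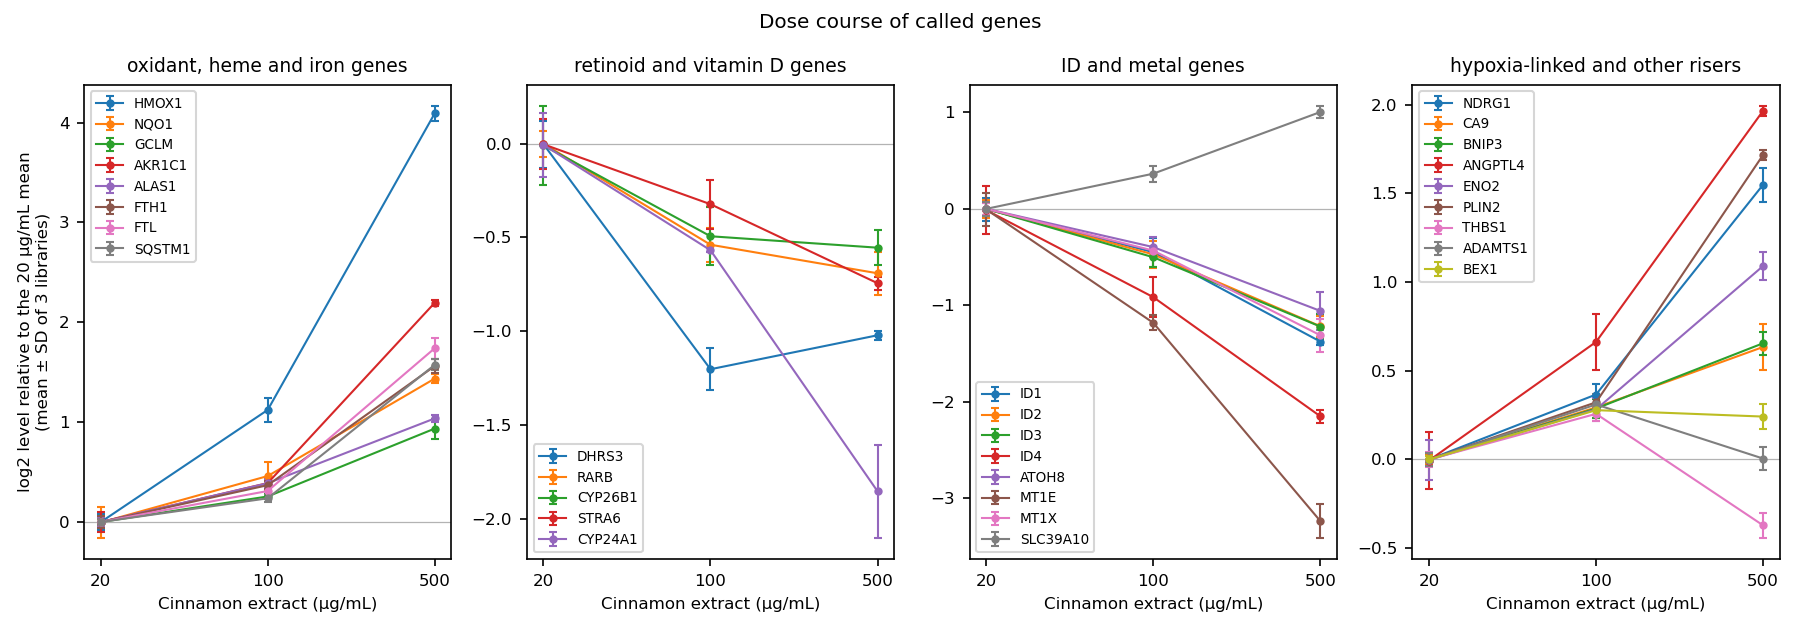
Log2 level relative to the mean at 20 µg/mL against Cinnamon dose for 30 called genes in 4 groups, as mean ± SD of 3 libraries. The genes were picked by the 20 and 100 µg/mL libraries plotted here. HMOX1 climbs through 500 µg/mL, DHRS3, RARB and CYP26B1 change little between 100 and 500 µg/mL and were not called there, and THBS1 and ADAMTS1 lie lower at 500 than at 100 µg/mL.

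Further genes that fell included SAMD11, a SAM domain protein (chromosome 1, 923928 to 944581). It had 41.3, 35.2 and 38.9 CPM at 100 µg/mL, against 66.4, 56.8 and 56.2 CPM at 20 µg/mL (log2 -0.64 ± 0.07, adjusted p = 1.47e-05). Its mean fell with every dose, at 80.3 ± 2.58 CPM in vehicle, 59.8 ± 5.71 at 20, 38.4 ± 3.06 at 100 and 17.3 ± 1.42 CPM at 500 µg/mL (SD, n = 3 each). The long noncoding RNA LINC02593, which lies beside it at 916865 to 921016, fell by log2 -0.61 ± 0.11 (adjusted p = 0.0109). Its level was 6.2, 5.65 and 4.67 CPM at 100 µg/mL, against 8.93, 7.6 and 8.7 CPM at 20 µg/mL.

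KRT18, a keratin of simple epithelia, had 148, 140.3 and 142 CPM at 100 µg/mL, against 195, 182 and 187 CPM at 20 µg/mL (log2 -0.39 ± 0.05, adjusted p = 0.000246). The keratin that pairs with it, KRT8, read -0.29 (adjusted p = 0.176). KRT18 was the called member of 5 tested epithelial markers, of which 2 read above 0 (up to 0.16) and 3 below. Of all genes tested 0.15% were called lower. The 8 epithelial markers summed to 156 to 168 CPM at 100 µg/mL and 203 to 215 CPM at 20 µg/mL. KRT18 made up most of both sums, so they largely repeat its own fall. EPCAM, CDH1 and KRT5, which define epithelial cells, were under 0.1 CPM at both doses. KRT18 also has many pseudogene copies, which leaves its count uncertain. No member of the neuron, oligodendrocyte, microglia, endothelial or fibroblast marker lists was called.

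PLAT, tissue plasminogen activator, had 305, 269 and 272 CPM at 100 µg/mL, against 386, 341 and 352 CPM at 20 µg/mL (log2 -0.35 ± 0.06, adjusted p = 0.005). SELENOW, a small selenoprotein, had 38.3, 36.0 and 37.8 CPM at 100 µg/mL, against 46.6, 48.8 and 48.7 CPM at 20 µg/mL (log2 -0.36 ± 0.06, adjusted p = 0.0039). Both were below vehicle at 20 µg/mL (log2 -0.22 and -0.32, adjusted p = 0.0417 and 0.00255). That comparison called 1.17% of all genes lower and also differs in code set and solvent label. Neither gene was called at 500 against 100 µg/mL (log2 -0.05 and -0.11, adjusted p = 0.579 and 0.227). ARHGAP20, a GTPase-activating protein, had 7.4, 8.13 and 7.82 CPM at 100 µg/mL, against 10.8, 11.0 and 11.5 CPM at 20 µg/mL (log2 -0.51 ± 0.10, adjusted p = 0.015). It too read near 0 at 500 against 100 µg/mL (log2 -0.07 ± 0.10, adjusted p = 0.661).

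PPP2R2B, a regulatory subunit of protein phosphatase 2A, had 10.6, 10.8 and 11.1 CPM at 100 µg/mL, against 15.2, 13.6 and 14.9 CPM at 20 µg/mL (log2 -0.43 ± 0.07, adjusted p = 0.00569). RHOBTB3 (log2 -0.33), LYPD1 (-0.30), PRKAR2B, a regulatory subunit of protein kinase A (-0.29), LIMCH1 (-0.24) and the receptor GPRC5A (-0.24) fell by less. The gene ENSG00000259264, without a symbol in the tables used, fell by log2 -0.62 ± 0.13 (adjusted p = 0.0282). Leaving out single libraries ended no call of SAMD11, KRT18, PLAT, SELENOW, PPP2R2B and RHOBTB3. The highest adjusted p among the others was 0.127 for LINC02593, 0.119 for ARHGAP20, 0.163 for LYPD1, 0.267 for PRKAR2B, 0.0968 for LIMCH1, 0.195 for GPRC5A and 0.245 for ENSG00000259264.

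Over all genes tested 0.281% were called, so a short list without a call does not show that its genes failed to respond. Of the 33 pathway lists, 20 had no called member. Among them were the NF-kB targets (24 tested, median 0.08), interferon response (26, -0.05), heat shock (14, -0.05), unfolded protein response (18, 0.03), p53 targets (18, 0.03), mitosis (26, -0.04), DNA replication (24, -0.01) and collagen and matrix genes (22, -0.01). CXCL8 and IL6, inflammatory mediators on the first of these, read 0.29 and 0.28 with adjusted p = 0.906 and 0.781. The 9 tested AHR targets had 1 call, NQO1, which is also an NRF2 target, and the classical target CYP1A1 read 0.08 ± 0.24 at about 1 CPM.

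The same dose step was taken with Astragalus root extract in the same code set, which shows what a step of this size gave with another extract. It called 1 gene of 16720 (0.00598%), and 758 genes (4.53%) had an unadjusted p under 0.05. That gene, CYP1B1, a cytochrome P450 and AHR target, had 92.5, 101 and 102 CPM at 100 µg/mL Astragalus, against 126, 127 and 125 CPM at 20 µg/mL Astragalus (log2 -0.35 ± 0.05, adjusted p = 0.0212). The call was lost when any of these 6 libraries was left out. CYP1B1 is not among the 47 genes called for Cinnamon, and with 1 call the lack of shared genes cannot show that the extracts differ. Heme and iron genes had a median of -0.02 there, NRF2 targets -0.03, retinoid genes -0.03, BMP and ID genes 0.14, metallothionein and zinc export genes -0.17 and hypoxia targets -0.01.

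The test of the difference between the dose steps of the extracts, Cinnamon minus Astragalus, called 18 genes, 10 higher and 8 lower (0.108% of all genes, 0.0598% higher and 0.0478% lower), and 4.69% had an unadjusted p under 0.05. Without composition scaling of the libraries 70.6% of the calls were higher, against 55.6% with it. HMOX1 had a difference of log2 0.96 ± 0.10 (adjusted p = 2.2e-05), with means of 73.0 ± 7.56 and 65.0 ± 1.85 CPM at 100 and 20 µg/mL Astragalus (SD, n = 3 each). SQSTM1 differed by 0.40 ± 0.06 (adjusted p = 0.00346) and CYP1B1 by 0.53 ± 0.08 (adjusted p = 0.00154). DHRS3 had the lowest p among genes with a negative difference, at -1.05 ± 0.11 (adjusted p = 2.15e-05), and its Astragalus means were 23.3 ± 1.48 CPM at 100 and 25.8 ± 1.13 CPM at 20 µg/mL (SD, n = 3 each). SAMD11 differed by -0.76 ± 0.10 (adjusted p = 0.000258) and ID3 by -0.70 ± 0.10 (adjusted p = 0.00146). ID3 had 211, 209 and 232 CPM at 100 µg/mL Astragalus, against 168, 187 and 210 CPM at 20 µg/mL Astragalus, where the ranges overlap and the gene was not called. The difference was called for MT1E as well (-0.84 ± 0.16, adjusted p = 0.0264), but not for MT1X (-0.16 ± 0.13) or MT2A (-0.28 ± 0.15). It was not called for RARB, CYP26B1 and STRA6 (-0.37 ± 0.12, -0.39 ± 0.14 and -0.26 ± 0.10), or for FTH1 and FTL (0.33 ± 0.08 and 0.30 ± 0.09). NQO1 was not called either (0.54 ± 0.12, adjusted p = 0.125), and neither was any of the 23 tested hypoxia targets.

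**Figure D4:**
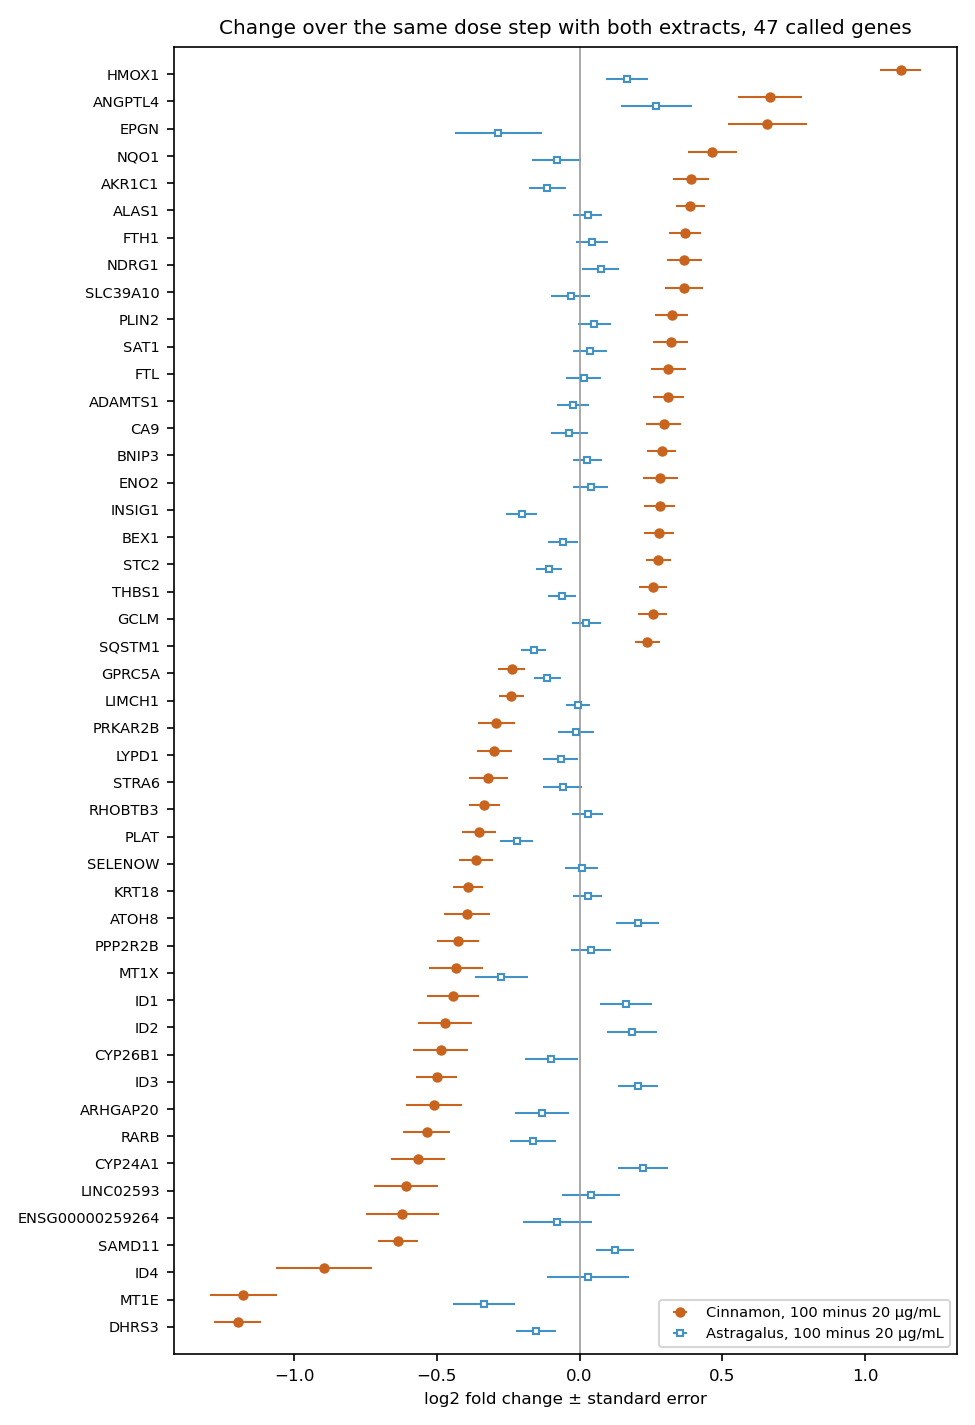
Log2 fold change ± standard error of the 47 called genes for 100 minus 20 µg/mL, Cinnamon (filled circles) above Astragalus (open squares), ordered by the Cinnamon value. The Cinnamon values run from -1.20 for DHRS3 to 1.13 for HMOX1, and none of the Astragalus values was called.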

How the data were processed

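Directional mRNA libraries were sequenced as paired-end reads, per the labels' protocols. The values deposited by the authors are RSEM expected counts per gene, and the submitters' processing notes name RSEM 1.3.3, STAR 2.7.3a, Trim Galore 0.6.5 and FastQC 0.11.9 with hg38 (GRCh38). The annotation release and the strand setting are not given in the sources used here, so overlapping and antisense genes are uncertain. Of 279 columns, 219 were not used. Expected counts (90.67% whole within 1e-09) were rounded.

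The members, gene lists, motifs and tests were chosen with earlier results of these data known. The fit took 21 libraries: Cinnamon and Astragalus at 3 doses and vehicle, 3 libraries a group. Genes passed filterByExpr (16720 of 60675). TMM factors were 0.968 to 1.025. edgeR 4.0.16 (R 4.3.3, limma 3.58.1) fitted 1 coefficient a group (estimateDisp, robust glmQLFit, glmQLFTest; 14 residual degrees of freedom, biological coefficient of variation 0.0631), so the SE reflects the spread of all 7 groups. SE is the log2 change divided by the square root of F. The fit was tested on simulated data. Intervals from depth cover counting error only.

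Genes named were the 15 largest called changes each way with a mean of at least 5 CPM, no overlap and a symbol, the 3 smallest p each way of the other tests, up to 4 called members a list, and HMOX1, MT1E, MT2A, DHRS3 and NEAT1. Other called genes were named after their values were seen. There were 33 pathway and 7 marker lists, with 597 of 598 genes found. Positions come from GENCODE release 29 on GRCh38 and promoter windows from RefSeq (GRCh38.p14), where 36 of the 47 called genes matched.

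Libraries of the 2 doses with the same replicate number deviated together, though the sample titles state no pairing. Deviations from the group mean correlated within numbers at 0.72, 0.40 and 0.48 across 11168 genes (genes are not independent replicates). The highest correlation of each 100 µg/mL library with another number at 20 µg/mL was -0.46, 0.11 and 0.36, so number 3 was barely set apart. Deviations also followed GC content, with Spearman's rank correlation across genes of 0.65, -0.54 and -0.40 at 100 µg/mL and 0.53, -0.56 and -0.23 at 20 µg/mL. No replicate pair was a copy, since the scatter ratio was 0.71 to 1.93, against 0.4549 for counting noise alone. Alternatives included DESeq2 1.42.0, other scalings, filters and sets of libraries, a replicate term and leaving out each library, of which the fits of 18 libraries were added after seeing the data. Summaries were made in Python 3.11.15 with pandas 2.3.3 and scipy 1.17.1, and figures with matplotlib 3.10.9.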

Additional observations from a re-analysis of the deposited data

Results flagged for a closer look

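For 18 genes the dose step of Cinnamon differed from that of Astragalus by the test of the difference itself, Cinnamon minus Astragalus on the log2 scale. Higher differences belonged to FAM225A, a long noncoding RNA (1.09), HMOX1 (0.96), ENSG00000258838 (0.58), CYP1B1 (0.53), AKR1C1 (0.50), the hyaluronan synthase HAS3 (0.49), INSIG1 (0.48), SQSTM1 (0.40), STC2 (0.38) and ALAS1 (0.36). Lower differences belonged to DHRS3 (-1.05), MT1E (-0.84), CYP24A1 (-0.79), SAMD11 (-0.76), ID3 (-0.70), ID2 (-0.65), ATOH8 (-0.60) and KRT18 (-0.42). FAM225A, HAS3, CYP1B1 and ENSG00000258838 are outside the 47 genes called for Cinnamon 100 against 20 µg/mL. FAM225A had 6.5, 6.34 and 6.49 CPM at 100 µg/mL Cinnamon, against 4.96, 4.28 and 3.79 CPM at 20 µg/mL Cinnamon, and 4.13, 4.24 and 3.51 CPM at 100 µg/mL Astragalus, against 5.48, 5.48 and 6.13 CPM at 20 µg/mL Astragalus. HAS3 had 51.9, 59.4 and 57.1 CPM at 100 µg/mL Cinnamon, against 46.1, 47 and 47.5 CPM at 20 µg/mL Cinnamon, and 32.3, 32.6 and 30.7 CPM at 100 µg/mL Astragalus, against 36.8, 36.9 and 38.3 CPM at 20 µg/mL Astragalus. In both genes the doses of the 2 extracts lay in opposite directions, but the genes were picked by the test of the difference on these same libraries. Neither gene was called for either extract alone.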

How the results depend on the processing

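Cinnamon 100 against 20 µg/mL called 47 genes. The count was 168 with no filter on low counts, 21 in a fit of all 19 groups, 75 in that fit without 1 Sagunja library, 72 with the replicate block, 20 in the 9 Cinnamon libraries, 12 in the 6 libraries, 589 in the 6 libraries with the block, and 21 to 40 with single libraries left out. It was 38 to 68 with the other scalings, filter and DESeq2, where DESeq2 called all of the 47 genes. The 18 libraries without vehicle gave 34 calls, and 70 with the block. Of the 47 genes, 41 lost the call in at least 1 of the 20 alternatives. No gene reversed its sign. Astragalus called 1 gene, against 124 with no filter, 0 in all 19 groups, 3 with the replicate block, 6 by DESeq2, 0 in the 18 libraries without vehicle and 0 to 0 with single libraries left out. Its libraries of the same replicate number correlated at 0.01, 0.16 and 0.23. The highest correlation with another number was 0.07, 0.19 and -0.05, so only number 3 was set apart. The difference between dose steps called 18 genes, against 158 with no filter, 11 in all 19 groups, 43 without the Sagunja library, 27 with the replicate block, 29 with the block in 18 libraries, 29 by DESeq2 and 12 to 21 with single libraries left out. Cinnamon 500 against 100 µg/mL called 3621 genes, and the count was 2427 to 4389 over the alternatives. Causes of these shifts were not tested.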

Other observations

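Over all genes tested, 8457 of 16720 read above 0 for Cinnamon 100 against 20 µg/mL, with a median of 0.0013 on the log2 scale. All 22 tested subunits of oxidative phosphorylation and all 18 tested ribosomal proteins did so, and none was called. Genes of a list are not independent replicates. The medians of these lists were 0.07 and 0.08. For Astragalus their medians were 0.0038 and 0.03. With the replicate term 2 hyaluronan synthases were called higher for Cinnamon, HAS3 (log2 0.26, adjusted p = 0.0224) and HAS2 (0.21, adjusted p = 0.0338), as was the AHR target SERPINB2 (0.25, adjusted p = 0.0425). That fit called 34 of all 16720 genes tested higher.

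NEAT1, the RNA scaffold of paraspeckles, had 481, 548 and 513 CPM at 100 µg/mL Cinnamon, against 485, 574 and 574 CPM at 20 µg/mL Cinnamon (log2 -0.08 ± 0.10, adjusted p = 0.996). It was higher at 20 µg/mL Cinnamon than in vehicle, which had 289 ± 8.68 CPM (SD, n = 3), by log2 0.91 ± 0.10 (adjusted p = 7.52e-05), and Astragalus libraries at 20 µg/mL had 600.3 ± 50.1 CPM (SD, n = 3). The comparison with vehicle called 1.18% of all genes higher and also differs in code set and solvent label.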
